A study of Mus musculus with 21 samples.

Results

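Telencephalon lacking the long noncoding RNA linc-Brn1b was followed from E13.5 to E15.5, and the step between both ages in the knockout was set beside the same step in wild type. The telencephalon is the front of the embryonic brain, from which the cerebral cortex and the basal ganglia form. Genes with at least 1 FPKM in the knockout at either age were taken, where FPKM is the number of fragments scaled to transcript length in kilobases and to the mapped fragments of the library. These were 13977 of the 40770 entries of the expression table, and 13740 of them also reached 1 FPKM in wild type, where 13973 entries did so. The step of a gene is its log2 ratio of E15.5 over E13.5 after 1 FPKM was added to each value. A positive step means a higher level at E15.5. Estimates had failed for 9 of the 13977 genes and were listed at 0 in 1 group, among them Eef1a1 and Tuba1a, so steps are given for 13968. Of these, 503 reached 1 FPKM in the knockout at E13.5 only and 438 at E15.5 only.

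Knockout embryos were homozygous for an allele in which the linc-Brn1b gene was replaced by a lacZ reporter and a neomycin resistance gene with its own promoter, and wild-type embryos carried neither. The allele is a germline deletion, present in every cell, made in hybrid 129S6S v/Ev and C57BL/6N embryonic stem cells and crossed once to C57BL/6J, so both genotypes have a mixed background. The labels list 2 libraries for the E13.5 knockout, 3 for the E15.5 knockout and 2 for wild type at each age, all from whole telencephalon. Only 1 FPKM value per group is available, so neither the spread between embryos nor the number of reads behind a value is known. No test was therefore made. A gene is called higher or lower where the step is at least 1 or at most -1, a 2-fold difference on the FPKM + 1 scale, and a call is a description of these pooled values.

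Around E13.5 the telencephalon is rich in radial glia, the apical progenitors that line the ventricle and divide there. Their daughters include intermediate progenitors and neurons, and deep-layer cortical neurons are born before upper-layer neurons. By E15.5 neurons make up a larger share of the tissue and begin to extend axons and assemble synapses. The choroid plexus, which secretes cerebrospinal fluid, grows from the dorsal midline of the same tissue. Pou3f3, also called Brn1, is a POU-domain transcription factor of upper-layer neurons and their progenitors, and linc-Brn1b lies beside it. In bulk RNA, fewer cells of a type and less RNA per cell cannot be told apart.

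The deletion runs over chr1:42763988-42770543 of mm9, a span of 6556 bp that starts 6935 bp after the annotated end of Pou3f3 and overlaps 0 genes of the GENCODE annotation of that build. The genotyping primers are shown because they mark sequence that only the intact allele holds. Both lie inside the deletion, on the minus strand at chr1:42764166-42764185 and on the plus strand at chr1:42764079-42764099 of mm9.
forward primer: tgccagcttggcttgtactc
reverse primer: gctcccaaaggttcctgtgtc

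Promoter windows are shown for a mitosis and a DNA replication gene because the shares of the words below differ between these lists. They were picked for holding the word, as the genes with the lowest knockout steps among mitosis genes with a CHR word (Cenpf) and replication genes with an E2F word (Uhrf1). A window is also shown for Pou3f3 because it is the nearest coding neighbour of the deletion. Each window spans 250 bases before and 50 after an annotated start, from RefSeq on GRCm38.p6. Capitals mark words of 3 kinds found on either strand: CCAAT, the target of NF-Y, the cell cycle homology region (CHR) TTTGAA or TTCGAA, and the E2F words TTTCCCGC, TTTGGCGC, TTTCGCGC and TTTGCCGC. The windows are chr1:189688037-189688336 on the minus strand for Cenpf, chr17:56304063-56304362 on the plus strand for Uhrf1, and chr1:42695518-42695817 on the plus strand for Pou3f3.
Cenpf: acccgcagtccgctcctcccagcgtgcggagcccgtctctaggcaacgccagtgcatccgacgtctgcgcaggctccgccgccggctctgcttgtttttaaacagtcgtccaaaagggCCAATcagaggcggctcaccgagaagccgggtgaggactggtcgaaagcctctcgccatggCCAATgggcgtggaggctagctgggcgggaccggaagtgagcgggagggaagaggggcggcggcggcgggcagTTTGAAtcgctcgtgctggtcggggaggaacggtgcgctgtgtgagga
Uhrf1: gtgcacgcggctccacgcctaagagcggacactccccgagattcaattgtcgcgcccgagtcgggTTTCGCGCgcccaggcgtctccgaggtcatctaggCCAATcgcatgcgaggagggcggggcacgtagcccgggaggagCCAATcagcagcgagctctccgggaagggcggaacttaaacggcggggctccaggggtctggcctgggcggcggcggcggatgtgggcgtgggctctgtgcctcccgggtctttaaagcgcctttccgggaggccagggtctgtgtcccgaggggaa
Pou3f3: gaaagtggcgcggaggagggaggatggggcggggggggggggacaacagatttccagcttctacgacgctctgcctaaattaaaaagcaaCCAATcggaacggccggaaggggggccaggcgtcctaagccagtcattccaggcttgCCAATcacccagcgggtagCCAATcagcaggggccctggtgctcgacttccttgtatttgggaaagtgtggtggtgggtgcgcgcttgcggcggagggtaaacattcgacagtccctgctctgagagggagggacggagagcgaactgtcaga
The Cenpf window holds 2 CCAAT words and 1 CHR word, that of Uhrf1 2 CCAAT words and 1 E2F word, and that of Pou3f3 3 CCAAT words. A match to these letters is a description and not a bound site.

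The tissue label was checked against telencephalon markers. Lhx2, a transcription factor of cortical progenitors, was at 149 and 92.4 FPKM in the knockout at E13.5 and E15.5 and at 147 and 88.4 in wild type, and all 8 markers reported here were above 3 FPKM in every group. The sex of the embryos was not balanced. Uty, Kdm5d, Eif2s3y and Ddx3y, all on the Y chromosome, summed to 0.01 FPKM in the E13.5 knockout and 21.0 in the E15.5 knockout, but to 49.2 in E13.5 wild type and 0.01 in E15.5 wild type. An entry on the X chromosome that spans the annotated Xist gene, linc-4930519F16Rik-1, ran the other way, at 109, 56.3, 0.388 and 121 FPKM in the same order. The pooled embryos thus differed in sex between the ages, in opposite order in the 2 genotypes. Sex and age therefore cannot be told apart within a genotype. The genotypes also differed in sex at each age, with the Y-linked signal in wild type at E13.5 and in the knockout at E15.5. The E15.5 knockout had both signals, at 21.0 and 56.3 FPKM, so its pool appears to hold both sexes. Sex and genotype are thus not separated at either age, which limits the comparisons of knockout with wild type below. Summed FPKM was 381511 in the E13.5 knockout and between 432380 and 435167 in the other 3 groups.

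linc-Brn1b itself was listed at 0 FPKM in the knockout at both ages, against 1.60 at E13.5 and 2.50 at E15.5 in wild type. The overlapping transcript AK011913 was at 0.0267 and 0 in the knockout and 8.71 and 8.73 in wild type. Both entries match the genotype labels. Of the 26 table entries that start within 1 Mb of the deletion, 12 were members, and 1 of these was called in the knockout, against 3.17% of all members called higher and 1.57% called lower. That gene is 2610017I09Rik, the divergent transcript linc-Brn1a at chr1:42705045-42751670 of mm9. It stood at 245 FPKM at E13.5 and 689 at E15.5 in the knockout, a step of 1.49. In wild type it went from 165 to 191, a step of 0.21. The knockout was thus above wild type at both ages, and the gap was wider at E15.5.

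The step of Pou3f3 did not reach 2-fold. The gene was at 36.5 and 29.2 FPKM in the knockout and at 81.5 and 82.5 in wild type, with steps of -0.31 and 0.02. The noncoding entry 2900092D14Rik, between Pou3f3 and the deletion, was at 10.6 and 8.65 in the knockout and 25.2 and 24.3 in wild type. Both genes were thus below wild type at each age in the knockout. Upstream, linc-Pou3f3-1 was at 1.18 and 1.53 in the knockout and 0.503 and 0.645 in wild type, so it too was higher in the knockout at both ages. Genes farther along, such as Nck2, an adaptor protein at 21.5 and 26.5 FPKM in the knockout, had values in wild type of 22.5 and 26.0.

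**Figure D1:**
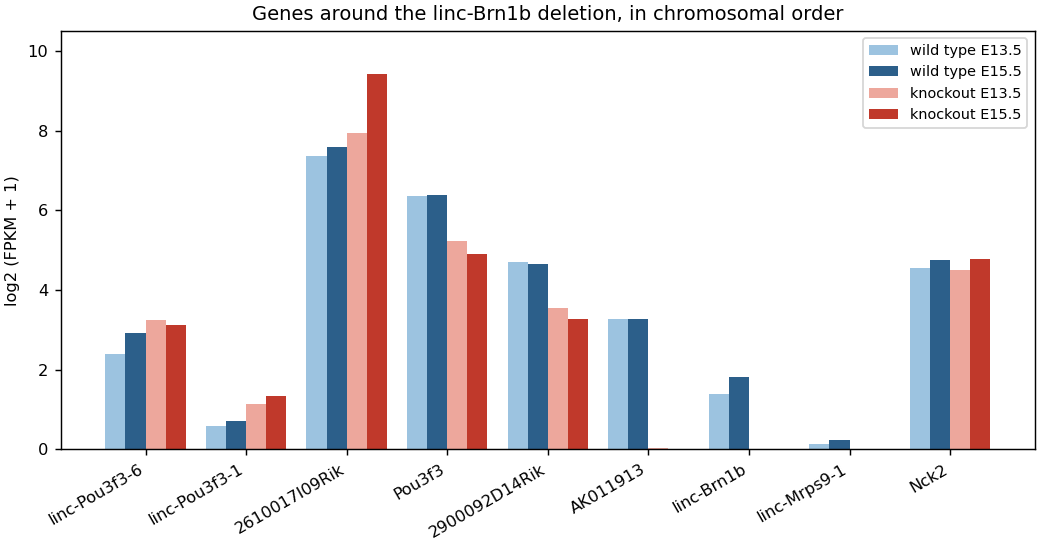
Level of 9 table entries around the linc-Brn1b deletion as log2 (FPKM + 1), in chromosomal order, with 1 bar for each of the 4 groups and no error bars because each group has 1 pooled value. 2610017I09Rik is the tallest and its E15.5 knockout bar stands alone, Pou3f3 and 2900092D14Rik are lower in both knockout groups, and AK011913 and linc-Brn1b are at or near 0 in the knockout.

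Across all members the knockout step had a median of -0.03, with quartiles of -0.28 and 0.27. In the knockout 443 of 13968 genes were higher at E15.5 (3.17%) and 219 were lower (1.57%). In wild type 291 were higher (2.08%) and 262 lower (1.88%), with a median of 0.01 and quartiles of -0.22 and 0.26. The knockout thus had more genes called higher than lower, while in wild type the counts lay closer together. Genes higher in both genotypes numbered 136, which is 30.7% of the knockout list and 46.7% of the wild-type list. Genes lower in both numbered 125, or 57.1% and 47.7%. The steps of the genotypes share no library, and across the 13968 genes Pearson's r was 0.66, a description over genes that share libraries.

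The excess of higher calls lay in short transcripts. Of 386 genes called higher in the knockout with an annotated length, 233 (60.4%) were under 1000 bp, compared with 12.7% of all members with a length and 37 of 239 genes called higher in wild type. Among genes with transcripts of at least 1500 bp, 105 were higher and 147 lower in the knockout, and 180 and 191 in wild type, so the balance of the knockout turned. Of these 105 higher genes, 82 (78.1%) were also called higher in wild type, and Pearson's r across the 9112 genes was 0.81. When the FPKM of each group was rescaled to the same total (TPM), 1 TPM was added in place of 1 FPKM, a smaller amount. The median knockout step moved from -0.03 to -0.22, with 348 genes higher and 640 lower. In wild type the median moved from 0.01 to 0.02, while the calls were 448 and 381. The TPM counts thus reflect both the rescaling and the smaller added value. Counts of calls in the knockout therefore depend on length, on scaling and on the added value. The lists below are given beside their wild-type values. Over all members the shares called were 3.17% higher and 1.57% lower in the knockout, and 2.08% and 1.88% in wild type.

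**Figure D2:**
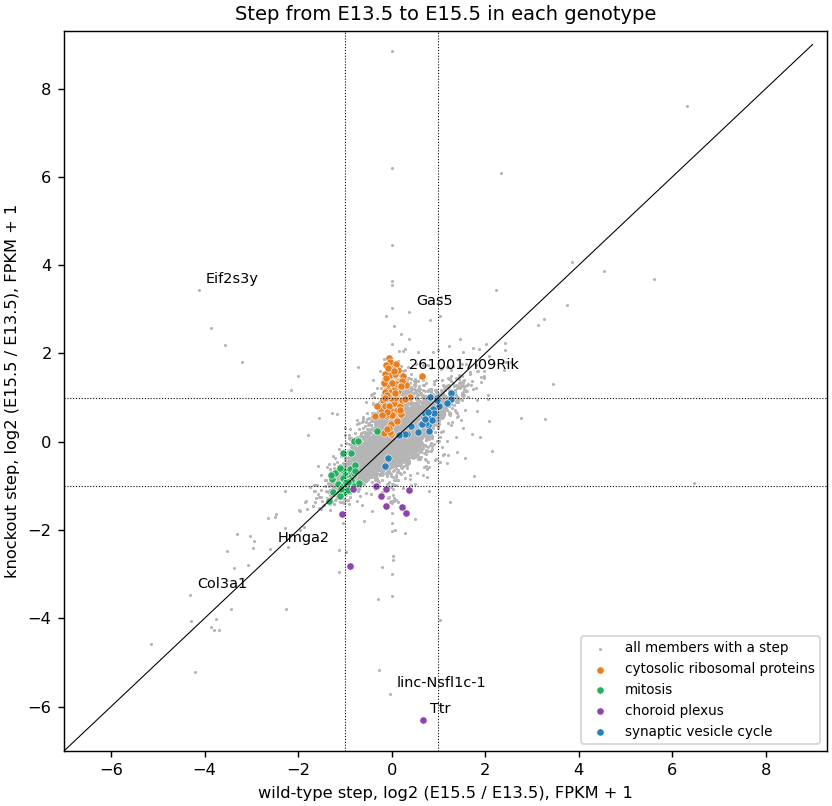
Step of every member in wild type (horizontal) and knockout (vertical), log2 of E15.5 over E13.5 on FPKM + 1, with dotted lines at the 2-fold calls and the diagonal marking equal steps. Mitosis and synaptic vesicle genes lie near the diagonal, ribosomal protein genes stand above it with wild-type steps around 0 (median -0.02), and Ttr and other choroid plexus genes stand below it.

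Radial glia genes were lower at E15.5 in the knockout. Of 23 listed, 7 were called lower and 2 higher, with a median step of -0.76, against a wild-type median of -0.92 with 8 lower and 1 higher. Nes, an intermediate filament of neural progenitors, was at 123 FPKM at E13.5 and 54.1 at E15.5 in the knockout and at 132 and 55.2 in wild type. Gli3, a mediator of Hedgehog signalling that patterns the dorsal telencephalon, went from 27.7 to 10.8 in the knockout and from 26.4 to 10.3 in wild type. Emx2, a transcription factor of cortical progenitors, went from 30.03 to 14.2, and its steps of -1.03 were the same in both genotypes to 2 decimals. Hes5, a Notch effector, differed more, from 34.1 to 19.7 in the knockout and from 46.9 to 18.3 in wild type, steps of -0.76 and -1.32.

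The 2 radial glia genes called higher were Tnc and Fabp7. Tnc, an extracellular matrix protein made by older radial glia and astrocytes, was at 10.7 and 31.1 FPKM in the knockout and 5.97 and 26.6 in wild type. Fabp7, a lipid-binding protein of radial glia, was at 348 and 759 in the knockout and 516 and 674 in wild type, so that only the knockout passed 2-fold. Sox2, which maintains progenitors, had a knockout step of -0.81, and Pax6, a determinant of dorsal radial glia, one of -0.65.

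Intermediate progenitor and proneural factors followed the same course. Of 15 genes, 3 were called lower and 0 higher, with a median knockout step of -0.47 and a wild-type median of -0.36. The 3 were Neurog1, Nhlh1 and Dll1. Neurog1, a proneural factor, stood at 6.07 and 1.44 FPKM in the knockout and 6.47 and 1.63 in wild type. Eomes, the defining factor of cortical intermediate progenitors, was at 78.7 and 50.9 in the knockout and 57.2 and 49.5 in wild type. Its E15.5 levels were thus close, and the knockout stood above wild type at E13.5. Insm1, which promotes the formation of basal progenitors, went from 25.5 to 29.7 in the knockout and from 25.2 to 30.7 in wild type.

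Signalling genes of the progenitor zones were mostly lower at E15.5. Of 37 Wnt genes listed, 29 were members, of which 28 had negative knockout steps and 5 were called lower. Their median was -0.57, against -0.66 in wild type, also with 5 lower. Some, such as Fzd10 at 1.01 and 0.400 FPKM in the knockout, reached 1 FPKM at E13.5 only. They were members through their higher value, so the count of negative steps is a description. Genes below 1 FPKM at both ages had steps of either sign, such as 0.26 for Wnt4 and -0.25 for Dkk2. Wnt8b, a ligand of the cortical hem, was at 5.91 and 1.43 FPKM in the knockout and 6.50 and 1.57 in wild type. Wnt7b, a ligand also made by neurons, ran the other way with a step of 0.19 in both genotypes. In the Notch list 16 of 18 steps were negative with a median of -0.57, and 1 gene, the ligand Dll1, was called lower. Wild type had a median of -0.77 with 5 lower.

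Genes that mark early progenitors by age were lower too. All 10 members of the early heterochronic list had negative knockout steps, with a median of -0.50 and 3 called lower, Hmga2, Igf2bp1 and Igf2bp2. Hmga2, a chromatin protein of young stem cells that let-7 microRNAs repress, was at 14.9 and 1.93 FPKM in the knockout and at 17.3 and 2.02 in wild type, steps of -2.44 and -2.60. Igf2bp1, an RNA-binding protein of the same set, went from 14.7 to 5.79 in the knockout and from 16.1 to 5.83 in wild type. In Hmga2 and Igf2bp1 the genotypes ran nearly in parallel. Lin28b, which blocks let-7 maturation, was at 3.51 and 2.10 in the knockout and 2.93 and 2.16 in wild type, steps of -0.54 and -0.32.

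Cell cycle genes carried the same direction. In the mitosis list 42 of 45 members had negative knockout steps and 10 were called lower, with 0 higher and a median of -0.86. In wild type 18 were called lower with a median of -0.98. Cenpf, a kinetochore protein, was at 35.3 FPKM at E13.5 and 13.3 at E15.5 in the knockout and 34.7 and 13.2 in wild type. Mki67, the proliferation antigen Ki-67, was at 112 and 47.5 in the knockout and at 104 and 48.02 in wild type. Top2a, a topoisomerase of dividing cells, was at 195 and 92.6 in the knockout and 189 and 88.5 in wild type. These long transcripts had nearly equal steps in both genotypes. Kif20b and Kif20a, kinesins of cytokinesis, had knockout steps of -1.0012 and -0.9982, just inside and just outside the limit for a call.

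Shorter mitotic transcripts differed more between the genotypes. Birc5, the survivin subunit of the chromosomal passenger complex, was at 39.5 and 33.1 FPKM in the knockout and 63.4 and 30.2 in wild type, steps of -0.25 and -1.05. Cenpa, the centromeric histone, was at 12.8 and 12.9 in the knockout and 20.7 and 11.4 in wild type. In both genes the E15.5 values were close and the E13.5 knockout value was the lower one.

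DNA replication genes had 42 of 44 negative knockout steps, with 4 called lower and a median of -0.68, against 15 called lower and a median of -0.89 in wild type. The 4 were Mcm10, Uhrf1, Cdt1 and Mcm3, which act in helicase loading and activation or, for Uhrf1, in copying DNA methylation. Uhrf1 was at 58.3 and 26.4 FPKM in the knockout and 68.5 and 26.4 in wild type. Pcna, the sliding clamp of the polymerases, was at 203 and 173 in the knockout and 291 and 169 in wild type. In 40 of 44 genes the step was smaller in size in the knockout than in wild type, against 48.1% of all members. The list's median log2 ratio of knockout over wild type was -0.20 at E13.5 and 0.04 at E15.5, so the genotypes lay apart mainly at E13.5.

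The promoters of both cell cycle lists differed in their letters. A CHR word stood in 84.2% of 38 windows of the mitosis list, in 6 of 40 windows of the replication list and in 19.2% of all 32851 RefSeq windows. CCAAT stood in 81.6% of mitosis windows, 24 of the 40 replication windows and 37.4% of all windows. E2F words stood in 2.63% of mitosis windows, 32.5% of replication windows and 2.26% of all. RefSeq windows were found for 35 of 45 mitosis genes and 35 of 44 replication genes. Among all members called lower in the knockout, 20.6% of 155 windows held a CHR word and 7.1% an E2F word, and among those called higher 13.3% and 1.18% of 338 did, against 13.2% and 3.94% of 11374 windows of all members.

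Lists of cortical projection neuron genes had positive median steps with few calls. Of 18 upper-layer genes 2 were called higher in the knockout, among them Mef2c, and 6 in wild type, with medians of 0.36 and 0.59. In the knockout 12 of the 18 steps were positive, and 12 of 18 were smaller in size than in wild type, against 48.1% of all members. Mef2c, a transcription factor of maturing neurons, was at 20.8 FPKM at E13.5 and 44.3 at E15.5 in the knockout and at 15.2 and 44.8 in wild type, a knockout step of 1.06. Bhlhe22, a factor of postmitotic cortical neurons, was at 26.0 and 40.7 in the knockout and 18.8 and 44.9 in wild type. The knockout level of both genes was thus the higher one at E13.5. At E15.5 the genotypes were close, with log2 ratios of knockout over wild type of -0.02 for Mef2c and -0.14 for Bhlhe22. Cux2, an upper-layer homeodomain factor, was at 13.48 and 14.9 in the knockout and at 12.4 and 18.7 in wild type.

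Pou3f2, the close relative of Pou3f3, was at 30.6 and 29.9 FPKM in the knockout and 20.2 and 27.4 in wild type. Pou3f1 was at 6.97 and 9.11 in the knockout and 7.90 and 9.93 in wild type. Of these 3 POU factors, Pou3f3 had the widest gap between the genotypes at E15.5.

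Deep-layer genes had a median knockout step of 0.27, with 3 of 16 called higher and 0 lower, against 0.42 in wild type with 3 higher. Crym, a thyroid hormone-binding protein of deep-layer neurons, was at 3.27 and 20.4 FPKM in the knockout and 4.44 and 13.98 in wild type. Pcp4, a calmodulin-binding protein, was at 30.8 and 81.3 in the knockout and at 31.4 and 77.3 in wild type. Tbr1, a fate factor, moved little, at 79.6 and 75.9 in the knockout and 66.4 and 77.7 in wild type. So did Bcl11b, at 53.2 and 49.5 against 42.8 and 51.2. Fezf2 and Sox5 had larger steps, of 0.26 and 0.28 in the knockout and 0.60 and 0.75 in wild type. When each group was rescaled to TPM, the median of this list was 0.07. Genes of Cajal-Retzius and subplate neurons, the earliest cortical neurons, had 0 of 12 calls in the knockout and a median of -0.19.

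Genes of the ventral telencephalon showed few calls. Of 22 listed, 1 was higher, the neuropeptide Npy of interneurons at 13.3 and 31.5 FPKM in the knockout and 15.4 and 41.0 in wild type. The median knockout step was -0.10. Striatal projection neuron genes had the higher median of 0.69, with 4 of 17 called higher in the knockout and 5 in wild type. Ppp1r1b, the dopamine-regulated phosphatase inhibitor DARPP-32, was at 8.65 and 22.3 in the knockout and 7.23 and 22.1 in wild type. Rxrg, a retinoid receptor of striatal neurons, was at 2.45 and 10.45 in the knockout and 2.10 and 9.83 in wild type. Striatal steps were thus close in both genotypes.

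**Figure D3:**
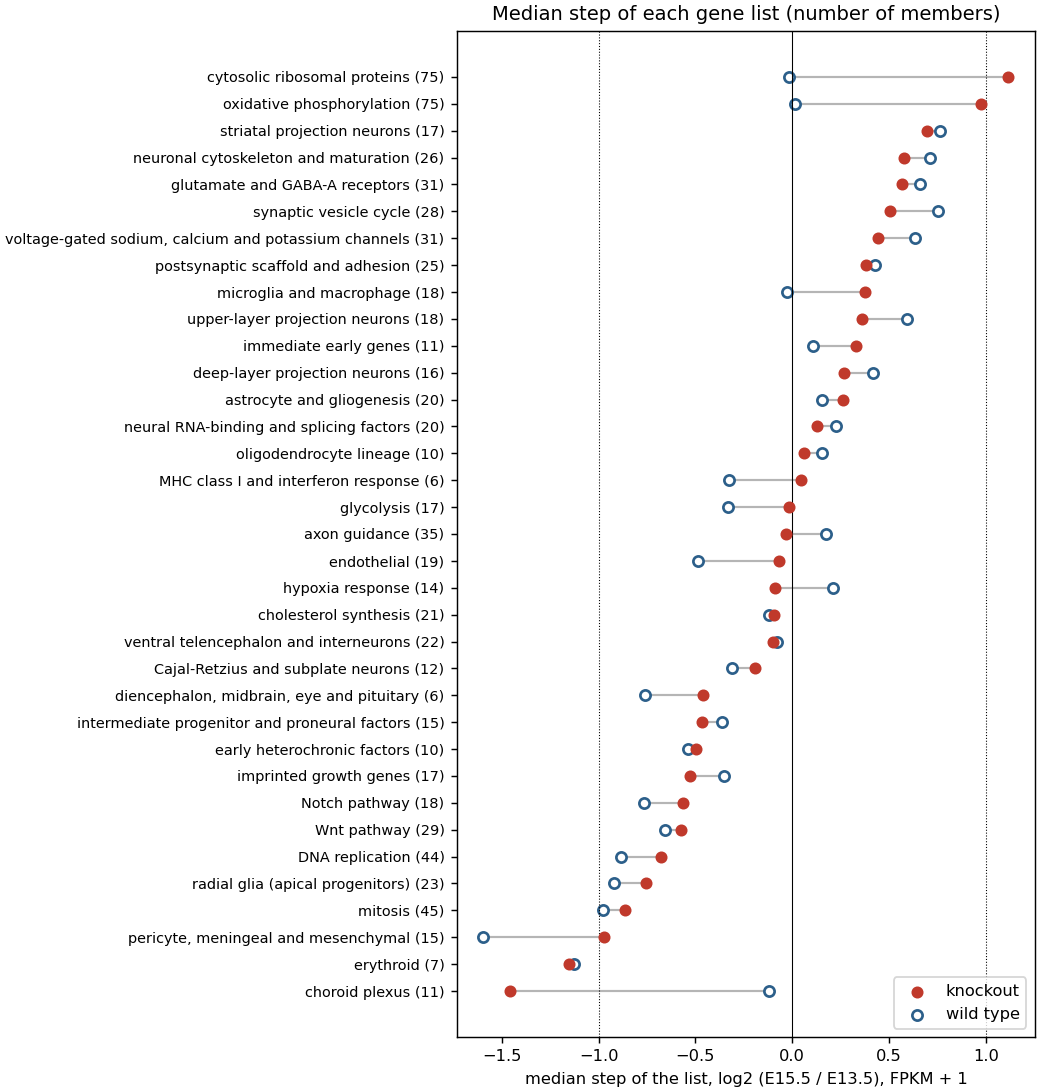
Median step of each gene list in knockout (filled) and wild type (open), log2 of E15.5 over E13.5 on FPKM + 1, with the number of members in brackets and dotted lines at 2-fold. Most lists keep their order in both genotypes, while cytosolic ribosomal proteins (1.12 against -0.02), oxidative phosphorylation (0.98 against 0.02) and choroid plexus (-1.46 against -0.12) stand apart.

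Neuronal maturation genes were higher at E15.5 in both genotypes. In the cytoskeleton and maturation list 24 of 26 knockout steps were positive and 5 were called higher, with a median of 0.58, against 0.71 and 4 higher in wild type. Stmn2, a microtubule regulator of growing axons, was at 254 and 451 FPKM in the knockout and 224 and 448 in wild type. Mapt, the axonal protein tau, was at 148 and 292 in the knockout and 120 and 291 in wild type. Thy1, a surface glycoprotein of mature neurons, was at 1.40 and 7.08 in the knockout and reached 224 in knockout whole brain at P7. For Stmn2 and Mapt the E15.5 levels were close and the knockout stood above wild type at E13.5.

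Of 28 synaptic vesicle genes 26 had positive knockout steps, 2 were called higher and the median was 0.50, against 0.75 and 4 higher in wild type. In 24 of the 28 the step was smaller in size in the knockout, against 48.1% of all members and 50.6% of members of 3000 to 6000 bp. Snap25, a core fusion protein, was at 32.2 and 60.5 FPKM in the knockout and 25.2 and 58.5 in wild type. The median log2 ratio of knockout over wild type for this list was 0.22 at E13.5 and 0.02 at E15.5, and genes of 4000 to 6000 bp, a length near that of many members, had 0.14 and -0.01. Cplx1 and Rab3a, which regulate vesicle release, were the 2 called higher, and Rab3a was below wild type at E13.5, at 53.8 against 61.5 FPKM. The vesicular glutamate transporter Slc17a6 had a negative step of -0.54 in the knockout.

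Receptors and channels followed. Of 31 glutamate and GABA-A receptor genes, 28 had positive knockout steps and 5 were called higher, with a median of 0.57, against 0.66 and 8 higher in wild type. Grin2b, an NMDA receptor subunit, was at 2.60 and 9.07 FPKM in the knockout and at 2.55 and 9.11 in wild type. Gria2, the AMPA receptor subunit that limits calcium entry, was at 69.3 and 115 in the knockout and 44.3 and 133 in wild type. Of 31 sodium, calcium and potassium channel genes 29 had positive steps and 2 were called higher, with a median of 0.44 against 0.64 and 5 higher in wild type. Kcnq3, a subunit of the M current, was at 5.22 and 12.96 in the knockout and 4.36 and 12.8 in wild type.

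Postsynaptic scaffold genes had a median knockout step of 0.38 with 3 of 25 called higher, Nrgn, Camk2b and Dlgap1. Nrgn, a calmodulin-binding protein of dendritic spines, was at 1.83 and 11.8 FPKM in the knockout and 3.35 and 9.12 in wild type. Axon guidance genes were split, with 17 of 35 steps positive, a median of -0.03 and 1 call, Robo3, a receptor of commissural axons at 2.87 and 0.513 in the knockout. Among neural RNA-binding factors the neuronal splicing factor Rbfox1 was the 1 gene called of 20, at 5.97 and 13.6 in the knockout. Ptbp1, the splicing repressor of progenitors, was at 100.5 and 59.6 in the knockout and 104 and 58.5 in wild type.

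Glial genes were mixed. Of 20 astrocyte and gliogenesis genes 3 were called higher and 3 lower in the knockout, with a median of 0.26 against 0.16 in wild type. Apoe, a lipid carrier of glia, was at 17.9 and 39.6 FPKM in the knockout and 38.7 and 42.4 in wild type. Gja1, the gap junction protein connexin 43, was at 30.5 and 9.66 in the knockout and 40.0 and 9.49 in wild type. In the oligodendrocyte lineage Olig1 was the 1 gene called of 10, at 2.00 and 6.31 in the knockout and 2.25 and 5.91 in wild type, and the defining factor Olig2 was at 8.97 and 7.15.

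Ribosomal protein genes were higher at E15.5 in the knockout, with the highest median of any list apart from the Y-linked genes. All 75 were above 0 and 44 were called higher, against 3.17% of all members, with a median of 1.12. In wild type 0 of 75 were called and the median was -0.02. Rplp1, a stalk protein of the large subunit, was at 327 FPKM at E13.5 and 1147 at E15.5 in the knockout, and at 1123 and 1092 in wild type. Rps14, of the small subunit, was at 306 and 1044 in the knockout and 930 and 989 in wild type. The list summed to 28084 FPKM in the E13.5 knockout and to between 55810 and 58484 in the other 3 groups, so that 1 group stood apart. With the E13.5 wild-type value in place of the E13.5 knockout value, the median step of the list was 0.05.

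Genes of oxidative phosphorylation behaved alike. Of 75 genes 36 were called higher in the knockout and 0 in wild type, with medians of 0.98 and 0.02. Atp5e, a subunit of the ATP synthase, was at 77.4 and 288 FPKM in the knockout and 311 and 278 in wild type. Ndufs1, a large subunit of complex I with a long transcript, was at 43.5 and 40.6 in the knockout and 41.3 and 39.0 in wild type. The step of Ndufs1 was thus unlike that of Atp5e.

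Transcript length moved with these steps, as the plot of median step by length shows. For genes of 300 to 600 bp the median knockout step was 0.71, for 600 to 1000 bp 0.26, for 1500 to 2000 bp 0.02, and for transcripts of 6000 bp and over -0.20. The wild-type medians over the same 4 ranges lay between -0.02 and 0.09. At E13.5 the median log2 ratio of knockout over wild type was -0.50 for 300 to 600 bp and 0.16 for 6000 bp and over, whereas at E15.5 it was 0.04 and -0.02. Short genes outside both lists shared the direction with a smaller size. Of 1381 other protein-coding genes of 300 to 1000 bp, 10.7% were called higher with a median of 0.25, against 64.5% and 1.16 for the 107 ribosomal protein and oxidative phosphorylation genes of that length. Whether RNA quality or library preparation had a part in this was not tested.

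**Figure D4:**
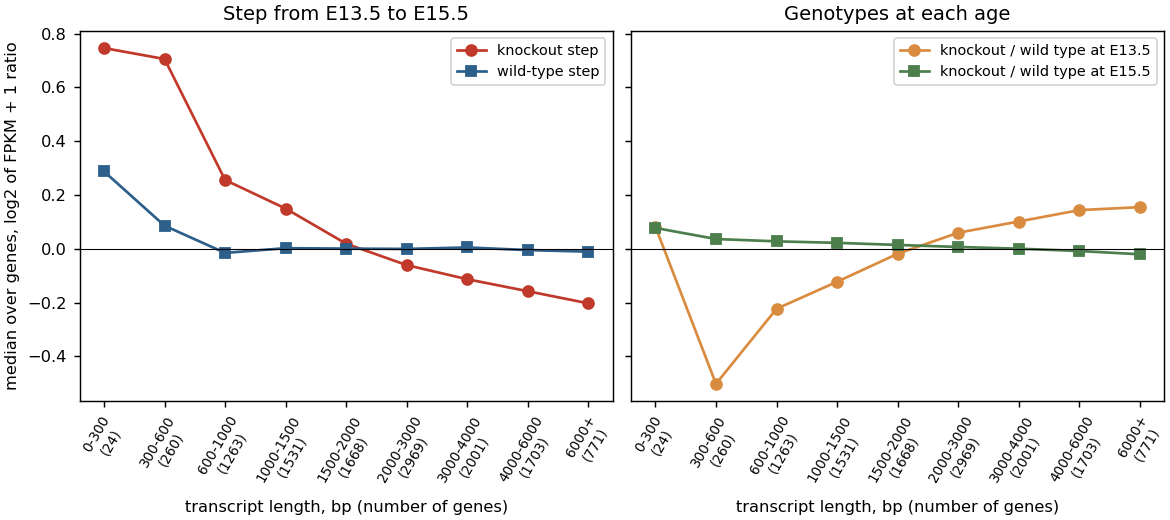
Median over genes by annotated transcript length, with the step from E13.5 to E15.5 in each genotype (left) and the log2 ratio of knockout over wild type at each age (right), all on FPKM + 1. The knockout step declines from 0.71 at 300 to 600 bp to -0.20 at 6000 bp and over while wild type stays near 0 above 600 bp, and the E13.5 ratio between the genotypes mirrors that decline. The bin under 300 bp holds 24 genes.

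Choroid plexus genes were lower at E15.5 in the knockout. Of 15 listed, 11 had a step of at most -1 in the knockout and 1 in wild type, with medians over all 15 of -1.08 and -0.03. The other 4, Cldn2, Kl, Prlr and Slc4a5, were below 1 FPKM in the knockout at both ages and so were no members. Over the 11 members the medians were -1.46 and -0.12, but 7 of them reached 1 FPKM at E13.5 only and were members through their higher value, so these counts are a description. Ttr, the thyroid hormone carrier that is the main secreted product of this tissue, was at 188 FPKM at E13.5 and 1.39 at E15.5 in the knockout, and at 146 and 231 in wild type. Clic6, an epithelial chloride channel protein, was at 8.12 and 0.305 in the knockout and 6.94 and 3.28 in wild type. Kcne2, a potassium channel subunit of the same epithelium that is outside the list, was at 6.72 and 0.0777 in the knockout and 4.57 and 3.84 in wild type. Folr1, the folate receptor, was at 2.97 and 0.290 in the knockout and 2.89 and 3.82 in wild type. The E13.5 levels were close in both genotypes, and the E15.5 knockout stood apart.

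The summed level of the 11 members was 238 and 13.03 FPKM in the knockout and 189 and 262 in wild type, most of it Ttr except in the E15.5 knockout. Without Ttr the sums were 49.4 and 11.7 in the knockout and 43.3 and 30.7 in wild type, so the direction in wild type turned. The list's median log2 ratio of knockout over wild type was 0.20 at E13.5 and -1.10 at E15.5. In whole brain at P7 Ttr was at 301 in the knockout and 443 in wild type. Otx2, an early choroid plexus and midline factor, was lower at E15.5 in both genotypes, from 13.04 to 3.53 in the knockout and from 12.9 to 5.69 in wild type. How much choroid plexus each dissection held was not tested. Limits of this comparison are that 1 pooled value stands for each group and that the groups differ in the sex of the embryos.

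**Figure D5:**
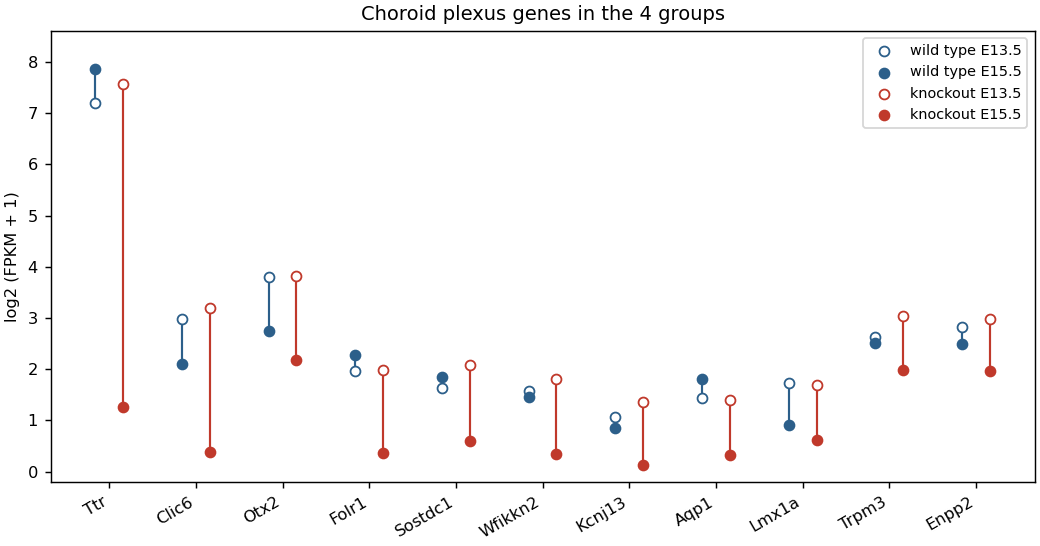
Level of the 11 choroid plexus members as log2 (FPKM + 1) in wild type (blue) and knockout (red), with open circles at E13.5 and filled circles at E15.5 joined by a line, 1 pooled value per point. Every red line runs down, the longest from 188 to 1.39 FPKM in Ttr, and the E13.5 circles of both genotypes lie close together.

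Mesenchymal and meningeal genes were lower at E15.5 in both genotypes. Of 18 listed, 15 were members, of which 7 were called lower in the knockout and 9 in wild type, with medians of -0.97 and -1.60. Over all 18 the knockout median was -0.93. Col3a1, a fibrillar collagen of meninges, was at 19.3 and 0.819 FPKM in the knockout and 38.5 and 0.997 in wild type. Such a gene, at 1 FPKM in the knockout at E13.5 only, was a member through its higher value, so these counts are a description. The pericyte genes of the list differed from the collagens, with Rgs5 at 11.2 and 19.9 in the knockout and 14.02 and 20.7 in wild type. The summed level of the list was 100.3 and 46 in the knockout and 167 and 49.0 in wild type. Endothelial genes had a median step of -0.07 in the knockout and -0.49 in wild type, with 1 of 19 called in each direction. The tight junction protein Cldn5 was the 1 called higher in the knockout, at 8.19 and 20.7, and stood at 16.5 and 18.03 in wild type.

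Globins of the embryonic type were lower at E15.5. Hbb-y, an embryonic beta-like globin, was at 421 FPKM at E13.5 and 16.7 at E15.5 in the knockout and 982 and 26.7 in wild type. Hba-x, its alpha-like counterpart, was at 79.4 and 3.79 in the knockout and 132 and 5.79 in wild type. The adult-type Hbb-b1 was at 34.8 and 65.7 in the knockout and 106 and 72.4 in wild type, so the genotypes differed in direction. Of 7 erythroid members 4 were called lower in each genotype. Microglia genes had a median of 0.38 in the knockout with 1 of 18 called higher, Tyrobp, a signalling adaptor with a short transcript at 1.15 and 5.00 in the knockout and 3.995 and 4.60 in wild type. The defining receptor Csf1r was at 3.79 and 4.25 in the knockout and 4.58 and 3.88 in wild type.

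Metabolic and growth genes added few calls. Of 21 cholesterol synthesis genes 0 were called in the knockout, with a median of -0.10. Hk2, a hexokinase of dividing cells, was the 1 glycolysis gene called lower of 17, at 8.61 and 3.36 FPKM, and Pfkp, a phosphofructokinase, the 1 called higher, at 6.54 and 15.6. Among 14 hypoxia genes Ndrg1 was the 1 called, at 11.7 and 27.9 in the knockout and 8.80 and 27.6 in wild type. Of 17 imprinted growth genes 2 were called lower in the knockout, Igf2 and Grb10, and 4 in wild type. Igf2, a fetal growth factor, was at 29.1 and 9.97 in the knockout and 46.1 and 13.7 in wild type. Ndn, the paternally expressed Necdin of neurons, was at 200.3 and 139.9 in the knockout and 264 and 243 in wild type. Fosl2 was the 1 of 11 immediate early genes called, at 2.25 and 7.44, and 0 of 6 interferon and MHC class I genes were called.

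Among genes with a symbol, the lowest knockout steps were those of Ttr, Hbb-y and Hba-x, followed by Lars2 and Snord22. Lars2, a mitochondrial leucyl-tRNA synthetase, was at 433 and 30.4 FPKM in the knockout and at 329 and 29.4 in wild type, so its difference with age stood in both genotypes. Slc7a11, a cystine transporter, was at 9.68 and 0.381 in the knockout and 2.02 and 0.379 in wild type. Tuba1c, an alpha tubulin, was at 64.7 and 10.7 in the knockout and 22.8 and 11.1 in wild type. For Slc7a11 and Tuba1c the E13.5 knockout was the high group. The remaining members of the 15 lowest were Snora69, Kcne2, Clic6, the extracellular genes Col3a1, Col1a1, Col1a2 and Lum, and the sulfatase Sulf1.

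The Y-linked genes were left out of this ranking, since they follow the sex of the embryos. The 15 highest knockout steps of the remaining symbols included 9 microRNA and snoRNA precursors that were listed at 0 in the E13.5 knockout, for which no fold is given. Mirlet7d, for example, was listed at 0 in 3 groups and at 459 FPKM in the E15.5 knockout. Gas5, the host of several snoRNAs, was at 16.3 and 132 in the knockout and 105 and 136 in wild type. Sla, a Src-like adaptor, was at 6.01 and 42.8 in the knockout and 4.01 and 43.1 in wild type. Scrg1 was at 0.344 and 5.25 in the knockout and 0.380 and 4.57 in wild type. For Sla and Scrg1 both genotypes had steps above 2, and for Gas5 the E13.5 knockout was the low group.

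Among symbols with transcripts of at least 1500 bp, and again without the Y-linked genes, the highest knockout steps after Sla and Rec8 were those of Ndufb2, Dync1i1 and Caln1. Rec8 was at 0.101 and 4.56 FPKM in the knockout and 3.64 and 5.04 in wild type. Ndufb2 was at 13.4 and 60.4 in the knockout and 46.6 and 56.8 in wild type. For both genes the E13.5 knockout was the low group. Dync1i1, a neuronal dynein chain, was at 7.32 and 34.0 FPKM in the knockout and 5.23 and 32.2 in wild type. Caln1, a neuronal calcium-binding protein, was at 1.21 and 7.48 in the knockout and 0.957 and 7.26 in wild type. Rgs4 and Vsnl1, signalling proteins of cortical neurons, had knockout steps of 1.63 and 1.53.

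Of 837 linc- entries 24 were called higher and 31 lower in the knockout, against 3.17% and 1.57% of all members. Wild type had 17 higher and 14 lower, against 2.08% and 1.88% of all members. The median steps of the linc- entries were -0.10 in the knockout and 0.14 in wild type. The lowest was linc-Nsfl1c-1 on chromosome 2, at 181 FPKM at E13.5 and 2.47 at E15.5 in the knockout and at 2.35 and 2.26 in wild type. Its E13.5 knockout value stood alone among the 4 groups. linc-Esp38, linc-Pkia-2, linc-Hic2 and linc-2610528E23Rik-AS followed, and all 4 were lower at E15.5 in both genotypes. linc-Pkia-2, the most abundant of them, was at 4680 and 241 in the knockout and 3208 and 229 in wild type. In whole brain at P7 it was at 1581 in the knockout and 3148 in wild type, above its E15.5 values. Lars2 was likewise at 168 and 342 at P7, and linc-Esp38 at 5.34 and 7.55. Why these entries were low at E15.5 in both genotypes was not tested. The highest was linc-Tfap2c, at 0.192 and 11.8 in the knockout and 1.24 and 9.48 in wild type. linc-Traf7-AS was at 0.135 and 5.95 in the knockout and under 0.1 at both ages in wild type.

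The knockout step minus the wild-type step was at least 1 in 253 genes (1.81%) and at most -1 in 93 (0.666%), with a median of -0.06 and quartiles of -0.21 and 0.13. In the first set, 46 were ribosomal protein genes and 32 oxidative phosphorylation genes, and in the second 7 were choroid plexus genes. With transcripts of at least 1500 bp, 17 and 16 genes were left. The genotypes lay farther apart at the younger age. The log2 ratio of knockout over wild type spanned -0.81 to 0.51 at E13.5 in the central 95% of genes and -0.18 to 0.18 at E15.5. The choroid plexus list ran the other way, with its wider gap at E15.5, as did linc-Brn1a, Pou3f3 and 2900092D14Rik.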

How the data were processed

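RNA of whole telencephalon was extracted with TRIzol and RNeasy columns, made into TruSeq libraries and sequenced in paired 101-base reads. Per the submitters' processing notes, reads were aligned to mm9 with TopHat2 and quantified with Cufflinks 2.0.2. The authors deposited 1 table of Cuffdiff FPKM, which holds 1 pooled value per group. FPKM divides by transcript length, so estimates of short transcripts depend on fragment size. The labels list 3 E15.5 knockout libraries and the paper's text gives 2, and which of them entered the pooled value is not given in the sources used here. The table also holds the authors' fold changes, test statistics, p-values and q-values for 15 comparisons, which were not used. No per-library column was available, and the number of such columns left unused was 0. Depth is unknown, and no test, interval or limit of detection was computed.

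Steps were computed with pandas 2.3.3 under Python 3.11.15 as log2 of FPKM + 1, after entries with failed estimates were removed, and the code was tested on simulated data. Figures were drawn with matplotlib 3.10.9. The 36 gene lists hold 875 genes. Members and lists were chosen with earlier results of these data known. Genes were named from the lists, from the locus within 1 Mb, and as the 15 highest and lowest steps without Y-linked genes, the 10 highest and lowest differences between genotypes and the 5 highest and lowest linc- entries. The 1500 bp selection, the X-chromosome entry and the genes at the edge of a call were added after values were seen. Transcript lengths came from the GENCODE annotation of mm9 and covered 12190 of 13968 members. Promoters came from RefSeq on GRCm38.p6 and matched 8792 members by symbol. Alternatives varied the pseudocount, the filter on low values, the scaling, the size of a call, the entries counted, the lengths kept and the starting group. Values of a few listed genes are not reported here.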

Additional observations from a re-analysis of the deposited data

Results flagged for a closer look

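Among all 13968 genes with a step, 8 passed 2-fold in opposite directions in knockout and wild type. The differences between the genotypes were not tested, since each group has 1 pooled value. Of the 8, 5 lie on the Y chromosome. The knockout step minus the wild-type step was 7.56 for Eif2s3y, 6.45 for Ddx3y, 5.76 for Kdm5d, 5.02 for Uty and 3.48 for linc-Eif2s3y-AS, and each of them was near 0 in the E13.5 knockout and in E15.5 wild type. linc-Dbc1, an entry on chromosome 4, differed by -5.07. It was at 62.5 and 2.86 FPKM in the knockout and at 0.714 and 2.50 in wild type, and at P7 at 14.7 and 0.949 in knockout and wild-type brain. NCX1, a table entry on chromosome 17, differed by 3.32, at 1.64 and 4.93 in the knockout and 5.06 and 0.361 in wild type. Defb11, a beta-defensin, differed by -2.63, at 1.59 and 0 in the knockout and 0.282 and 2.06 in wild type, all of them low values.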

How the results depend on the processing

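No paired analysis was possible because the table holds 1 value per group, and for the same reason leaving out each replicate and a replicate block were not run. Lists and genes followed across alternatives kept their sign in every one of them. Of 242 values, 158 moved by less than 0.19 (log2), the median absolute difference between genotypes, or for counts by less than 1.5 times. In each group of counts that follows, higher and lower in the knockout come first, then wild type, then the difference of the genotypes. With a pseudocount of 0.1 FPKM the counts were 694, 466, 611 and 499, with 201 lower differences, and with 5 FPKM 233, 56, 96 and 71, with 32. At 1.5-fold they were 1452, 1094, 1214, 1095, 811 and 358, and at 3-fold 86, 49, 50, 48, 46 and 34. Rescaling to the same total (TPM) came with 1 TPM added, a smaller amount than 1 FPKM. It gave 640 genes lower in the knockout, 448 higher in wild type and 218 lower in the difference. Lower differences were 49 at 5 FPKM or more and 42 for gene symbols alone. With transcripts of at least 1500 bp, 105 genes were higher in the knockout, 180 in wild type, and the differences were 17 and 16. With the E13.5 wild-type value as the start, 321 genes were higher and 267 lower. The last 2 settings, and keeping failed estimates at 0, were chosen after seeing the data.

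Median knockout steps of lists moved as follows. With a pseudocount of 0.1 FPKM they were 1.05 for striatal, -2.44 for choroid plexus and -1.56 for mesenchymal genes, and with 5 FPKM 0.36, -0.59 and -0.39, with -0.49 for DNA replication. At 5 FPKM or more striatal genes had 0.38 and mesenchymal genes -2.26, and with no filter choroid plexus genes had -1.08. With TPM, where 1 TPM was added, the medians were -0.97 for radial glia, -0.67 for intermediate progenitors, -0.91 for DNA replication and -1.07 for mitosis. They were 0.071 for deep layers, 0.31 for synaptic vesicles, 0.93 for ribosomal proteins and 0.79 for oxidative phosphorylation. Choroid plexus had -2.09 and mesenchyme -1.43. With transcripts of at least 1500 bp oxidative phosphorylation had 0.42 and choroid plexus -1.08. Starting from E13.5 wild type gave 0.64 for upper layers, 0.76 for synaptic vesicles, 0.051 for ribosomal proteins, 0.066 for oxidative phosphorylation, -1.13 for choroid plexus and -1.71 for mesenchyme. The cause of these shifts was not tested beyond the settings themselves.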

Other observations

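Genes of the neighbouring diencephalon, midbrain, eye and pituitary were scarce in the knockout telencephalon. Of 27 listed, 6 reached 1 FPKM, all 6 had negative steps and 1 was called lower, with a summed level of 35.8 FPKM at E13.5 and 19.5 at E15.5, against 33.9 and 17.5 in wild type. Small RNA entries numbered 24, of which 12 were listed at 0 in the E13.5 knockout. In the knockout 13 were called higher and 3 lower, against 3.17% and 1.57% of all members. In wild type 10 and 2 were called, against 2.08% and 1.88%.

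In whole brain at P7 linc-Nsfl1c-1 was at 188 FPKM in the knockout and 2.04 in wild type, and Tuba1c at 52.4 and 3.23. Both had been above wild type in the knockout at E13.5 and close to it at E15.5. 2610017I09Rik was at 453 in the knockout and 79.7 in wild type at P7, and Pou3f3 at 5.81 and 22.7.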
